A study of Mus musculus with 2 samples.

Results

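The Iroquois genes *Irx1* to *Irx6* are 6 of the 21938 protein-coding genes of the mouse annotation (GENCODE M21 on GRCm38/mm10), and they lie in 2 clusters. *Irx1*, *Irx2* and *Irx4* span 1311.7 kb (chr13:71957921-73269608), and *Irx3*, *Irx5* and *Irx6* span 882.4 kb (chr8:91798525-92680956). The members were taken by name, and their accessible regions by position. A region was taken where a peak of replicate 1 and a peak of replicate 2 overlapped, and it was assigned to a gene where it came within 1 kb of an annotated start. Of the 98850 such shared regions of the genome, 169 lay in both clusters and the 250 kb on each side of them, 117 around *Irx1/2/4* and 52 around *Irx3/5/6*.

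Iroquois proteins are transcription factors of the TALE homeodomain class, named for the extra residues between helices of their homeodomain. Duplication within a cluster and then of the whole cluster left paralogous pairs, *Irx1* with *Irx3*, *Irx2* with *Irx5* and *Irx4* with *Irx6*. In the heart *Irx4* marks the ventricles, *Irx3* acts in the ventricular conduction system, and *Irx5* shapes the gradient of repolarisation across the ventricular wall through the potassium channel gene *Kcnd2*.

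The samples were whole hearts of wildtype (WT) FVB mouse embryos at E11.5, with a pair of hearts in each of 2 replicates that form 1 group. Open chromatin was mapped by ATAC-seq, in which a transposase cuts accessible DNA and inserts sequencing adapters. No other genotype, stage or tissue was analysed here, so no test between conditions was possible. A whole heart mixes myocardium, endocardium, epicardium and cushion cells, so a region open in fewer cells and a region less open in every cell cannot be told apart.

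Replicate 1 had 117951 peaks and replicate 2 had 114702 on the chromosomes used. Each peak carries a fold enrichment, which is the number of reads stacked at the summit divided by a genome-wide background after 1 is added to each. Over shared regions its median was 6.52 and 5.78 in replicates 1 and 2, and the log2 ratio between replicates had an SD of 0.53, or 1.44-fold. Where a pair of values is given for a site, it is the fold enrichment in replicate 1 followed by that in replicate 2. Sites were called ordered only where both replicates gave the same order and each differed by more than this spread. All 11 cardiac genes reported beside the members had a shared region at a start, beside 67.6% of all protein-coding genes. Among them were the cardiac factor genes *Nkx2-5* and *Gata4* and the ventricular light chain gene *Myl2*.

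The promoters of *Crnde* and *Irx2*, at the strongest start regions, are shown first, together with that of *Irx4*, the member with the lowest value at its starts. Each line holds the 250 bases before the start in the RefSeq promoter table for GRCm38.p6, read 5′ to 3′ on the strand of the gene. They are chr8:92356121-92356370 on the minus strand for *Crnde*, the noncoding gene next to *Irx5*, chr13:72628570-72628819 on the plus strand for *Irx2*, and chr13:73260247-73260496 on the plus strand for *Irx4*. Of the 6 members, 3 were found in that table, *Irx2*, *Irx3* and *Irx4*. None of the 8 motifs searched, which are spelled out with the distal regions, was present in these 3 stretches.
Crnde promoter: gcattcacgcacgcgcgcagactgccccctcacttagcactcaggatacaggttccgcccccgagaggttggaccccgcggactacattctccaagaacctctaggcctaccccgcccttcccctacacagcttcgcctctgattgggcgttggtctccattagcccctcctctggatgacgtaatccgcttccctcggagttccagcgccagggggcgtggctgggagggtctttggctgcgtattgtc
Irx2 promoter: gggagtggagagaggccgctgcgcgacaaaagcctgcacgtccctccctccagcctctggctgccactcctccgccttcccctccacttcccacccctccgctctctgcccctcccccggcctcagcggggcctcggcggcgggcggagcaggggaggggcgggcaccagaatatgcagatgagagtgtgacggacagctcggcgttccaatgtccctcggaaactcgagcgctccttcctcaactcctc
Irx4 promoter: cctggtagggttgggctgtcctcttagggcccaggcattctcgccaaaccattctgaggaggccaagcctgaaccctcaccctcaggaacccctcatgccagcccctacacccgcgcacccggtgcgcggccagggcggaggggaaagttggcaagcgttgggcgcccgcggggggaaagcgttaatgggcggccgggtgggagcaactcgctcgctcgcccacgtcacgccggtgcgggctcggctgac

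The reference sequence comes from another strain than FVB, and differences between the strains were not examined. In the 300 bp around the mean summit, the start regions were rich in G and C. That window held 76.0% G and C at *Irx1*, 69.7% at *Irx2*, 76.3% at *Irx4*, 66.3% at *Irx3*, 65.0% at *Irx5* and 66.3% at *Irx6*, against a median of 62.0% over all shared regions at protein-coding starts. *Irx4* thus combined the highest G and C content of the 6 with the lowest fold enrichment.

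All 6 members had a shared region at an annotated start. Among all protein-coding genes the share was 67.6% (14820 of 21938). The values of the members spread widely. They were highest at *Irx2* and in the region shared by *Irx5* and *Crnde*, and lowest at *Irx4*, and the median of their mean fold enrichments was 14.6, whereas the median over all genes with such a region was 24.5.

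The region assigned to *Irx5* read 37.8 and 38.0 in the order of the replicates, from a pileup of 138 and 150 reads. These values exceeded those of 83.6% and 85.0% of the genes with a region at a start. The region was 2668 bp long (chr8:92355588-92358255) and overlapped exons of both *Irx5* and *Crnde*, a noncoding gene transcribed away from it whose start lies 1505 bp from the nearest start of *Irx5*. Both summits were closer to *Crnde*, at 44 and 28 bp from its start, than to *Irx5*, at 1461 and 1533 bp. A peak list gives 1 summit per peak, so the height over the *Irx5* start itself is not known.

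*Irx2* reached 34.2 and 28.7 with pileups of 125 and 113 reads, above 76.0% and 61.3% of genes. Its main region (chr13:72627982-72629630) had summits 149 and 164 bp from the nearest *Irx2* start. The same region covers the start of the noncoding gene *Gm20554*, which runs in the opposite direction from a start 256 bp away, and the summits were 107 and 92 bp from it. Both genes at the top of the order therefore had a region that also held the start of a divergent noncoding gene. For *Irx2* the list also held 4 further shared regions within 1 kb of its 5 annotated starts. Those with both summits inside had fold enrichments of 8.96 and 7.29 (chr13:72631201-72632016) and of 4.62 and 4.53 (chr13:72632440-72632686).

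*Irx1* had 15.5 in replicate 1 and 16.3 in replicate 2, above 26.9% and 29.9% of genes. The region spanned 2383 bp (chr13:71962402-71964784), with summits 43 and 45 bp from the outermost start. A weaker region near an internal start read 6.25 and 5.78 (chr13:71959062-71960439). *Irx1* was thus below the median of genes in both replicates despite a region longer than that of *Irx2*.

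*Irx3* read 16.3 and 10.3, from 59 and 40 reads, and showed the largest gap between replicates of the 6 members, 0.66 on the log2 scale. Its region (chr8:91800769-91802509) also overlapped an exon of the antisense gene *Irx3os*. *Irx6* read 11.1 and 9.55 (chr8:92673373-92674649), with summits 564 and 531 bp from the nearest start. Both were below the lower quartile of genes in replicate 2, which was 13.8.

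*Irx4*, the ventricular member, had the lowest values, 7.61 and 5.78 from pileups of 27 and 22 reads. It was above 9.13% and 6.46% of genes with a region at a start. The region (chr13:73260254-73261033) was 780 bp long, and its summits were 63 and 163 bp from a start. Of 6 further regions in the body, the highest, in an intron (chr13:73263130-73264269), read 9.51 and 8.80, and others read 8.15 and 5.78 (chr13:73265378-73265840) and 7.06 and 5.28 (chr13:73268628-73269047). The start and that intronic region differed by less than the spread in replicate 1, so they were not ordered. *Irx5* also held 6 regions in its body, with no value above 6.79 in either replicate, whereas *Irx2* and *Irx3* held 1 each and *Irx1* and *Irx6* none outside the start windows. Counted once per group of connected peaks, the body regions were 4 at *Irx4* and 6 at *Irx5*. Those of *Irx2* and *Irx3* each shared a peak of 1 replicate with a region at a start.

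**Figure D1:**
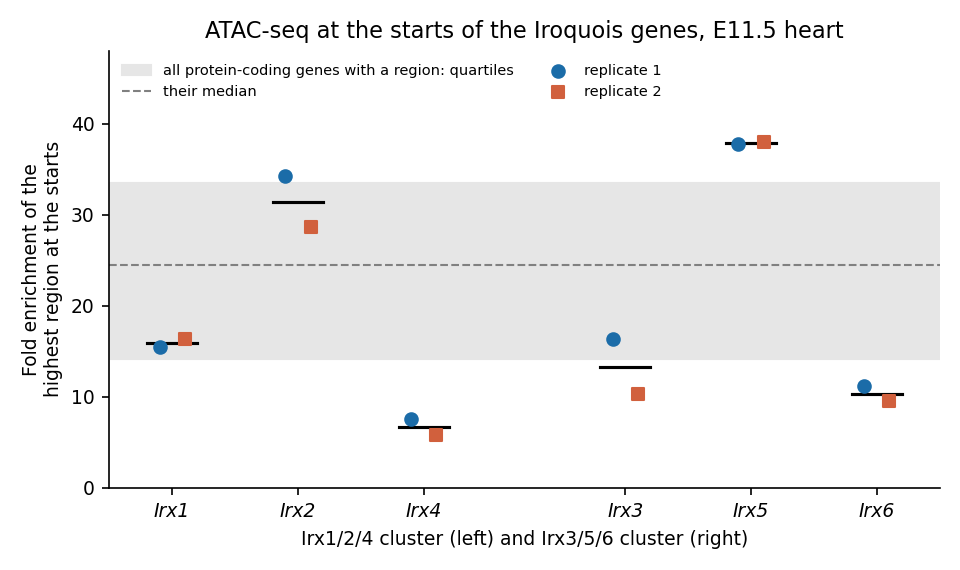
Fold enrichment of the highest shared region within 1 kb of a start of each Iroquois gene, with points for replicate 1, squares for replicate 2, black bars for their mean, and a grey band for the quartiles of the mean over all protein-coding genes with such a region. The region of *Irx5*, whose summits lie at *Crnde*, is above the band in both replicates, *Irx2* above it only in replicate 1, and *Irx4* and *Irx6* lie below it in both.

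By mean fold enrichment the order was *Irx5* (37.9), *Irx2* (31.4), *Irx1* (15.9), *Irx3* (13.3), *Irx6* (10.3) and *Irx4* (6.69). The place of *Irx5* rests on summits at the *Crnde* start and is not a measure of the *Irx5* start. Of the 15 pairs of members, 11 were ordered beyond the spread in both replicates, and of the 10 pairs without *Irx5*, 7 were. The exceptions were *Irx5* with *Irx2*, *Irx1* with *Irx3*, *Irx1* with *Irx6* and *Irx3* with *Irx6*. Neighbours in the order could thus be told apart only between *Irx2* and *Irx1* and between *Irx6* and *Irx4*. On the log2 scale *Irx1* stood at -1.14 and -0.81 relative to *Irx2*, and *Irx4* at -0.55 and -0.72 relative to *Irx6*.

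By likeness, taken as the smallest difference in mean log2 fold enrichment of 2 replicates, the paralogues *Irx2* and *Irx5* came first with -0.27, a value that for *Irx5* comes from the summits at *Crnde*, followed by the paralogues *Irx1* and *Irx3* with 0.29 and by *Irx3* and *Irx6*, which are not paralogues of one pair, with 0.33. *Irx1* and *Irx6* differed by 0.62, about as much as the paralogues *Irx4* and *Irx6* with -0.64, so likeness did not follow the paralogous pairs throughout. These are descriptions over 6 genes and 2 replicates.

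The distal regions with the highest values are shown next. For each, the 300 bp around the mean summit is printed from the GRCm38 plus strand, and capitals mark motif matches on either strand. The first is the strongest region outside the member starts around *Irx1/2/4* (chr13:73298713-73299012). The next pair lie between *Irx2* and *Irx4* (chr13:72977280-72977579 and chr13:73160354-73160653), the former as the highest region between members of its cluster and the latter for its CTCF match, both chosen after their values were seen. The last pair are the highest regions between *Irx3* and *Irx5* (chr8:92323808-92324107 and chr8:91987925-91988224). Names give the distance in kb from the nearest member start, with a minus sign for upstream.
Irx4 +38.6 kb: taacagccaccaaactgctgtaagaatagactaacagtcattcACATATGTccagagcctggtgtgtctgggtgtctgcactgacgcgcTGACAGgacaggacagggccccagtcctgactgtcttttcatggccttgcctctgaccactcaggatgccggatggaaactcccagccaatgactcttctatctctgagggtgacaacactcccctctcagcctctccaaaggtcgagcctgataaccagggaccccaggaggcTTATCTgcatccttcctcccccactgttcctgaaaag
Irx4 -282.6 kb: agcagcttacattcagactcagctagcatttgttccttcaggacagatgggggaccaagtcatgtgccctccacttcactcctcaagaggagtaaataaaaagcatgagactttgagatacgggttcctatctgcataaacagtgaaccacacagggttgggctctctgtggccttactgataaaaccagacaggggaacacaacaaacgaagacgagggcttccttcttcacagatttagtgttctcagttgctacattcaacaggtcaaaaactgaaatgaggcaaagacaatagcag
Irx4 -100.2 kb: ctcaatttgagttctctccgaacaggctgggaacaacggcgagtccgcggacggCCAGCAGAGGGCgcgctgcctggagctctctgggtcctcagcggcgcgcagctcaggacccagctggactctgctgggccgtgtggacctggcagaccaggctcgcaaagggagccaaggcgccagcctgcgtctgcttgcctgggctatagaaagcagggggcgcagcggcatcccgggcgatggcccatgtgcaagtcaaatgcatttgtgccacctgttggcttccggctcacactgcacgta
Irx5 -33.7 kb: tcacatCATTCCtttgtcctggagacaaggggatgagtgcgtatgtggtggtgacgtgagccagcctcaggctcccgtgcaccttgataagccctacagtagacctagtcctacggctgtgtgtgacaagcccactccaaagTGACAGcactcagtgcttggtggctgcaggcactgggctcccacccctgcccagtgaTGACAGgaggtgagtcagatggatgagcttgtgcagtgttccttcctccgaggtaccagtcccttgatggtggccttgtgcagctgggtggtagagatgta
Irx3 -186.0 kb: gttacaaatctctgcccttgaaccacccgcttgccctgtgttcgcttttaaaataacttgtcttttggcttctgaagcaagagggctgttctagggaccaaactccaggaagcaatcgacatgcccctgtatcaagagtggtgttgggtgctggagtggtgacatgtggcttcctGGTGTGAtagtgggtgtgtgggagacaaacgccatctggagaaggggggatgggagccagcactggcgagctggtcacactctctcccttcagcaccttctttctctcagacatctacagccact

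The motifs searched were TCACACC for T-box factors, AGATAA for GATA factors, TGACAG for MEIS factors, CACTTGA for NKX2 factors, GGAATG for TEAD factors, ACANNTGT for Iroquois factors, and consensus sequences of CTCF and MEF2, on both strands. *Irx4* +38.6 kb held 1 match each for the Iroquois, MEIS and GATA letters, *Irx5* -33.7 kb held 2 for MEIS and 1 for TEAD, *Irx3* -186.0 kb held 1 for T-box, and *Irx4* -100.2 kb held 1 for CTCF. No printed match overlapped another. A match is a run of letters and does not show that a factor was bound.

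The region downstream of *Irx4* (chr13:73298503-73299713) was the most accessible outside the member starts of either cluster. It read 32.1 in replicate 1 and 31.4 in replicate 2, from 117 and 124 reads, with summits 8 bp apart. These values were above those of 96.7% and 96.3% of all shared regions. It is intergenic, 38.6 kb downstream of the *Irx4* start and before the next protein-coding gene, *Ndufs6*, which encodes a subunit of respiratory complex I. The *Irx4* start thus read less than this region in both replicates by more than the spread. Whether the region acts on *Irx4* was not tested.

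Between the members of this cluster lay 52 shared regions, 24 between *Irx1* and *Irx2* and 28 between *Irx2* and *Irx4*, and 49 of the 52 were intergenic. They read up to 23.6 in replicate 1 and 25.9 in replicate 2, with medians of 6.93 and 6.03. The 5 highest, picked after their values were seen, had mean values of 20.5 to 24.4, and 4 of them lay between *Irx2* and *Irx4*. No protein-coding gene other than the members is annotated in this stretch, so regions between members were intergenic or at noncoding genes by position.

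Between *Irx2* and *Irx4*, the highest region (chr13:72977064-72978687) read 22.8 and 25.9 and lay 282.6 kb upstream of *Irx4*. Another (chr13:72972158-72972805), 288.0 kb upstream of *Irx4*, read 18.5 and 22.9, and the region 100.2 kb upstream of *Irx4* (chr13:73159772-73160750) read 22.3 and 18.9. The region 204.8 kb downstream of *Irx2* (chr13:72833243-72834010) read 20.6 and 23.4. Each of these 4 sites read above the *Irx4* start by more than the spread in both replicates.

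Between *Irx1* and *Irx2* the highest region (chr13:72370843-72371555) read 23.6 and 17.4 at the start of the predicted transcript *Gm47836*. Intergenic regions there read 16.03 and 19.11 (chr13:72497434-72498156, 131.0 kb upstream of *Irx2*) and 16.8 and 16.3 (chr13:72133781-72134908, 170.6 kb upstream of *Irx1*). Both differed from the *Irx1* start by less than the spread in each replicate. The widest stretch of this cluster without a shared region, 174.9 kb (chr13:72640400-72815281), began after a pair of regions downstream of *Irx2*, which read up to 9.78 and 10.06, and ended at the start of the noncoding gene *D730050B12Rik*, which read 16.03 and 19.61. Within it, 6 peaks were called in 1 replicate only.

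**Figure D2:**
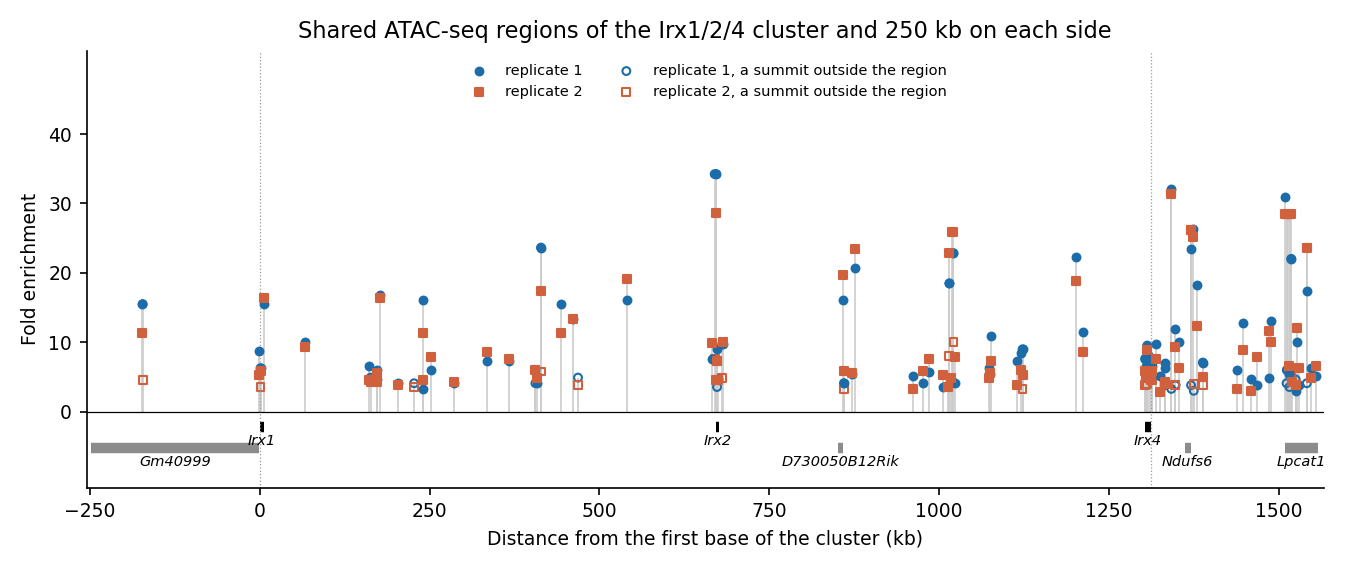
Fold enrichment of each shared region along the *Irx1/2/4* cluster and 250 kb on each side against distance in kb, with points for replicate 1, squares for replicate 2, open symbols for regions that do not contain both summits of their peaks, and bars below for genes. High regions lie on both sides of *Irx2* and beyond *Irx4*, while no region within the *Irx4* gene exceeds 9.51 in either replicate and a stretch of 174.9 kb between *Irx2* and *D730050B12Rik* is without one.

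In the *Irx3/5/6* cluster, 20 shared regions lay between members, 15 between *Irx3* and *Irx5* and 5 between *Irx5* and *Irx6*. The highest (chr8:92323677-92324241) lay 33.7 kb upstream of *Irx5* and read 20.9 and 15.1. The next (chr8:91987853-91988381) read 16.6 and 15.8 in an intron of the noncoding gene *Gm36670*, 186.0 kb upstream of *Irx3*. Both were less accessible than the region shared by *Irx5* and *Crnde* by more than the spread in each replicate.

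The other regions between these members were lower. The highest of them (chr8:91872605-91873100) read 10.3 and 12.8 in an exon of *Gm28511*, 70.8 kb upstream of *Irx3*. On the side of *Irx6*, regions 71.1 and 63.5 kb upstream of its start read 10.3 and 8.80 (chr8:92602910-92603420) and 9.51 and 8.05 (chr8:92610429-92611077), close to the *Irx6* start itself. A stretch of 135.6 kb between *Irx3* and *Irx5* (chr8:91992026-92127597) held no shared region and 1 peak of a single replicate.

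**Figure D3:**
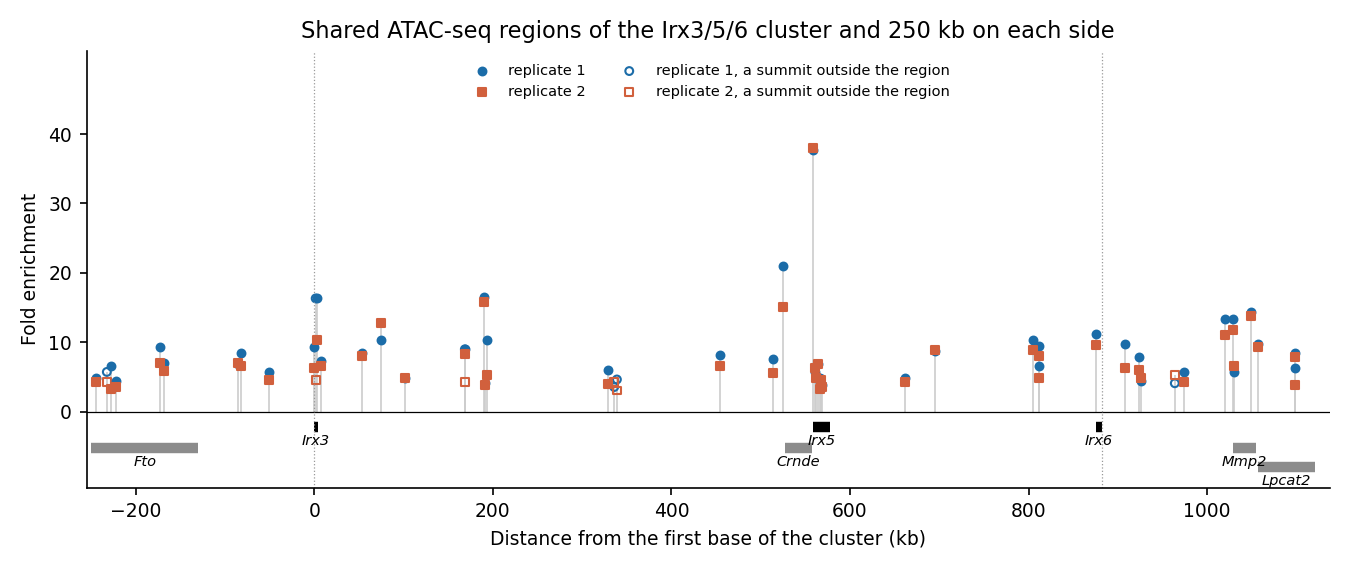
Fold enrichment of each shared region along the *Irx3/5/6* cluster and 250 kb on each side against distance in kb, with points for replicate 1, squares for replicate 2, open symbols for regions that do not contain both summits of their peaks, and bars below for genes. The region shared by *Irx5* and *Crnde* stands above all others, and the next highest lies 33.7 kb upstream of *Irx5*.

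Outside the clusters, the flanks were unequal. Beyond *Irx4*, the 250 kb held 45 regions, and beyond *Irx1* the 250 kb held 3, all within 1 kb of a start of the noncoding gene *Gm40999*, of which the highest read 15.5 and 11.3. Per 100 kb these were 18.0 and 1.2, beside 3.63 over the chromosomes used. Pieces of long peaks are counted separately here and in the stretches that follow. Counted once per group of connected peaks, the flanks beyond *Irx4* and *Irx1* held 31 and 2. The *Irx4* side divides into the 50.2 kb up to *Ndufs6* with 14 regions, the 12.3 kb of *Ndufs6* and *Mrpl36* with 3, the 135.0 kb up to *Lpcat1* with 10, and the remaining 52.4 kb, most of it *Lpcat1*, with 18. *Lpcat1* encodes an enzyme of phospholipid remodelling and *Mrpl36* a mitochondrial ribosomal protein.

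These neighbouring genes carried high values of their own. The *Lpcat1* start (chr13:73466346-73469102) read 31.0 and 28.4, an intron of *Lpcat1* (chr13:73474699-73476189) read 22.0 and 28.4, *Mrpl36* (chr13:73330684-73331990) read 26.4 and 25.1, and the region over the starts of both *Ndufs6* and *Mrpl36* (chr13:73327942-73328817) read 23.4 and 26.1. All 4 exceeded the *Irx4* start by more than the spread in both replicates. The regions counted on this side thus include those of genes that are not members.

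Around the other cluster, the 250 kb beyond *Irx3* held 10 regions. Of these, 6 lay in introns of *Fto*, a gene for an RNA demethylase whose introns are known for long-range contacts with *Irx3* and *Irx5*. *Fto* runs from -485.0 to -130.1 kb of the cluster edge, so the flank held only its 3′ part. Introns nearer its start were not counted, and whether these 6 regions make such contacts was not tested. The 6 lay 172.3 to 248.4 kb downstream of the *Irx3* start, and the highest (chr8:91625741-91626464) read 9.24 and 7.04. The lowest (chr8:91576713-91576924) read 4.35 and 3.52. All 6 read less than the region 33.7 kb upstream of *Irx5* by more than the spread in both replicates.

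The flank beyond *Irx6* held 12 regions. The highest (chr8:92846599-92847790) read 14.4 and 13.8 in an intron of *Mmp2*, a matrix metalloproteinase gene. The *Mmp2* start (chr8:92827148-92827878) read 13.3 and 11.8, and an intergenic region 144.1 kb downstream of *Irx6* (chr8:92818101-92818594) read 13.3 and 11.1. The start of *Lpcat2*, a paralogue of *Lpcat1*, read 9.78 and 9.30, and *Capns2* had no shared region at its start. Both clusters are thus followed, on the side of *Irx4* and of *Irx6*, by a gene of the same lipid enzyme family, with the higher value beside *Irx4*.

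Per 100 kb, the *Irx1/2/4* span held 5.26 shared regions (69 in all) and the *Irx3/5/6* span 3.40 (30 in all), a ratio of 1.55, beside 3.63 over the chromosomes used. Windows of the same length tiled over the genome held a median of 46 and of 30 regions. The *Irx1/2/4* span exceeded 72.6% of its windows and the *Irx3/5/6* span 49.6%. The ratio was 1.31 in the peaks of replicate 1 alone and 1.55 in those of replicate 2 alone.

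In windows of 100 kb, the *Irx1/2/4* cluster with its flanks ranged from 0 to 21 regions and the *Irx3/5/6* cluster with its flanks from 0 to 7. The genome median was 2 regions per window and the upper quartile 5. The window with *Irx4* and the window with *Lpcat1* held 21 regions each, more than 99.5% of windows. These counts include pieces of long peaks, and each of the 2 windows held 13 regions with both summits inside, more than 97.4% of windows counted that way. The window 950 to 1050 kb from the cluster edge, between *Irx2* and *Irx4*, held 12. In the *Irx3/5/6* cluster the fullest window was that of *Irx5*, with 7.

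**Figure D4:**
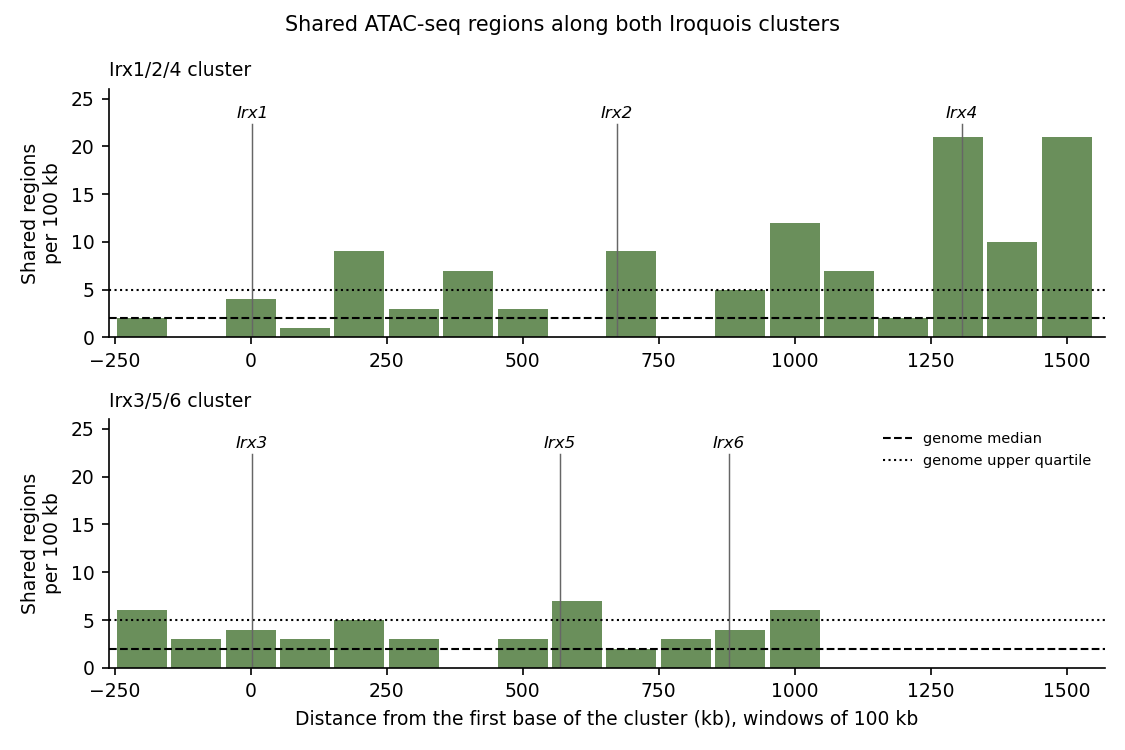
Number of shared regions in consecutive windows of 100 kb along both clusters and their flanks, with dashed and dotted lines for the median (2) and upper quartile (5) of all windows of the genome and vertical lines for the members. The window with *Irx4* holds 21 regions, pieces of long peaks included, and that with *Irx5* holds 7, and windows with 0 occur in both clusters.

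A mean fold enrichment of at least 20 was reached by 13 of 117 regions around *Irx1/2/4* and by 1 of 52 around *Irx3/5/6*, the region of *Irx5* and *Crnde*, beside 10.7% of all shared regions. At least 10 was reached by 41 and by 10, beside 26.7%. Where a long peak of 1 replicate overlapped several peaks of the other, each piece carries the value of the whole peak, so some of these counts include 1 peak more than once. Among regions with both summits inside, at least 20 was reached by 12 of 82 and 1 of 46 beside 10045 of 86973 such regions in the genome, and at least 10 by 25 and 9 beside 27.6%. Counted once per group of connected peaks, the clusters with flanks held 87 and 50 groups.

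The replicates gave similar values where both summits lay inside the region. Across those 128 of 169 regions, which share 2 libraries and are not independent, Spearman's rho was 0.82 and the SD of the log2 ratio 0.41. Over all 169, which include pieces of long peaks whose summit lies elsewhere, this SD was 0.88. Around *Irx1/2/4*, 13 of 115 peaks of replicate 1 and 24 of 126 of replicate 2 had no partner in the other list, and around *Irx3/5/6* 10 of 60 and 6 of 58 had none. None of these peaks exceeded a fold enrichment of 6.03.

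**Figure D5:**
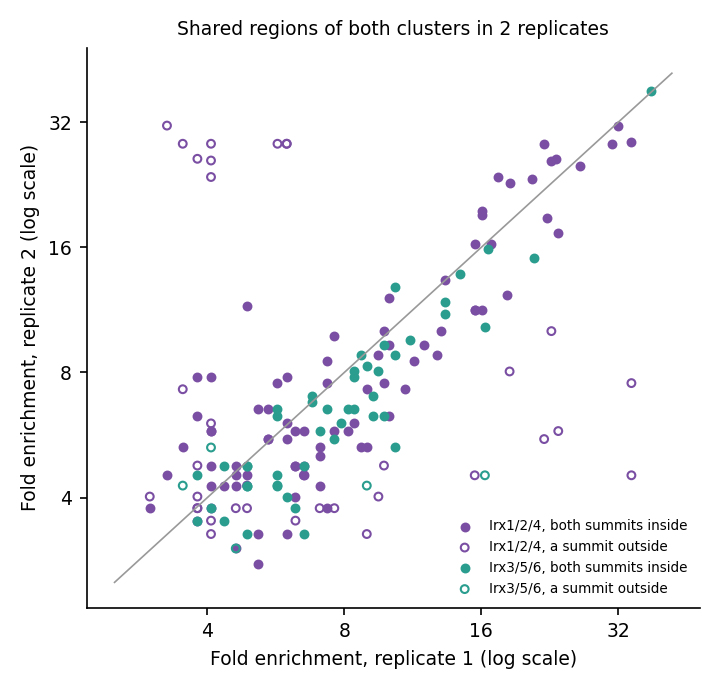
Fold enrichment of the 169 shared regions of both clusters and flanks in replicate 1 against replicate 2 on log axes, coloured by cluster, with filled symbols where both summits lie inside the region and a line of equal values. Filled symbols follow the line, and the open symbols far from it are pieces of peaks whose summit lies elsewhere.

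The regions between members differed from the start regions in base content. Their median G and C content was 50.7%, and the ratio of observed to expected CpG was 0.21, close to the 49.0% and 0.21 of all shared regions away from protein-coding starts and below the 62.0% and 0.69 of those at starts. Of the 72 regions between members, 24 (33.3%) held a GATA match, beside 25.8% of all shared regions away from protein-coding starts. T-box letters were in 8 of 72 (11.1%) beside 5.0%, MEIS in 21 (29.2%) beside 31.1%, TEAD in 15 (20.8%) beside 22.4%, NKX2 in 5 (6.94%) beside 5.46%, MEF2 in 4 (5.56%) beside 5.82%, and Iroquois letters in 6 (8.33%) beside 10.6%. For most motifs the shares were near the background.

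By cluster, between *Irx3*, *Irx5* and *Irx6*, 11 of 20 regions held a GATA match and 10 of 20 a MEIS match. Between *Irx1*, *Irx2* and *Irx4* these were 13 and 11 of 52 (25.0% and 21.2%). The shares over all shared regions away from protein-coding starts were 25.8% and 31.1%. With the flanks, a GATA match was in 30.8% of regions around *Irx3/5/6* and in 20.5% around *Irx1/2/4*, beside 22.1% of all shared regions. A MEIS match was in 36.5% and 24.8%, beside 28.4%. CTCF matches were found in 6 of 117 regions around *Irx1/2/4*, 4 of them beyond *Irx4*, and in 0 of 52 around *Irx3/5/6*, beside 2.99% of all shared regions. Windows of neighbouring regions can overlap, and no difference between the clusters was tested. In the main start regions the only match was for TEAD, in the region of *Irx5* and *Crnde*. Over all 32851 promoters of the RefSeq table, 11.2% held the GATA letters, 19.2% MEIS, 14.7% TEAD, 3.98% T-box, 3.06% NKX2, 7.38% Iroquois, 0.557% CTCF and 3.19% MEF2.

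Other TALE genes give a scale for the members, since Iroquois proteins share this homeodomain class with the MEIS, PBX and TGIF factors. The 11 reported here all had a shared region at a start, beside 67.6% of protein-coding genes, with mean fold enrichments of 15.0 to 45.4 and a median of 23.8, near the 24.5 of all genes. *Pknox1*, which encodes a relative of the MEIS factors, read 45.6 and 45.3, and *Meis1* read 27.4 and 22.9. The lowest 3 members, *Irx3*, *Irx6* and *Irx4*, had means below those of these 11 genes. In replicate 1, however, *Irx3* exceeded *Meis3* (15.8 and 14.3), the lowest of these by mean, and *Mkx* (14.1 and 16.3).

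The 11 cardiac genes reported had means of 5.10 to 48.4 with a median of 16.2, beside 14.6 for the members. *Hey2*, a ventricular repressor, was highest with 50.5 and 46.3, and *Tbx5* was lowest with 5.43 and 4.78. Among the regulators, *Nkx2-5* read 11.95 and 9.30, *Gata4* 16.03 and 16.3, *Hand1* 10.1 and 8.05 and *Hand2* 25.0 and 22.1. *Myl2*, a ventricular gene like *Irx4*, read 13.0 and 9.80. Of genes linked with Iroquois factors, *Kcnd2* read 16.8 and 17.1, the potassium channel subunit gene *Kcnip2* 9.51 and 7.04, and the connexin genes *Gja1* and *Gja5* 18.7 and 17.6 and 26.4 and 27.2. The *Kcnip2* value in replicate 2 came from another region at its starts than the one with the highest mean. By these values *Irx4* stood between *Tbx5* and *Kcnip2* at the low end, and it differed from each by less than the spread in both replicates.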

How the data were processed

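ATAC-seq peak lists of 2 replicates were used, mapped to GRCm38/mm10 with coordinates written from 1. Per the study's methods and the submitters' processing notes, the authors trimmed single-end reads (Trim Galore 0.6.6, cutadapt), mapped them (Bowtie2 2.4.2), discarded duplicate and poorly mapped reads (SAMtools 1.12) and called peaks per replicate, not on pooled reads, with MACS2 without a local background. Repeated sequence is therefore underrepresented. The deposited fold enrichment is a ratio at the summit, and −log10 p-values and −log10 q-values, also as deposited, belong to the same summit. The largest p-value in the deposited lists was 0.000476 in replicate 1 and 0.00104 in replicate 2, stricter than the limit stated in the methods, and the lists were used as deposited.

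Read totals are not part of the lists. All fold enrichments were whole reads within a tolerance of 0.02 when the background was taken as 2.68 reads in replicate 1 and 2.98 in replicate 2, so replicate 2 was slightly deeper if reads were extended alike. No counting interval was computed. The study's methods call the 2 pairs of hearts biological replicates. Whether they came from separate litters is not given in the sources used here.

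Peaks on chromosomes 1 to 19, X and Y were intersected (at least 1 bp) and merged, each region keeping the values of its peaks. For members, listed genes and the genome-wide background, a gene's value in each replicate is the highest among its regions within 1 kb of any start. The replicates were taken separately, so a pair of values can come from different regions. For each member both values came from the same region, the one with the highest mean. Members and lists were chosen with earlier results of these data known. The genes named are the members, their neighbours with a shared region or coding for protein, 11 TALE and 11 cardiac genes, with 1 further gene of each list not reported here. The regions named are those at member starts, the 5 with the highest mean outside them per cluster, the widest gap, and others named after their values were seen. No test was run. Alternatives were limits on p (0.00001) and q (1e-10), a reciprocal overlap of 50%, each replicate alone, start windows of 500 bp and 2 kb, the outermost start, flanks of 100 and 500 kb, flanks without other protein-coding starts, base pairs, and spans with flanks. The overlap code was tested on simulated data and found 3500 of 3500 pairs. Python 3.11.15, NumPy 2.4.6, pandas 2.3.3 and Matplotlib 3.10.9 were used.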

Additional observations from a re-analysis of the deposited data

How the results depend on the processing

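No paired analysis was possible because the series holds a single group. Of 79 alternatives computed, 48 left the value within its margin and 31 moved it. The margin was wider for counts of regions than for shares of genes. A count of 60 in place of 52 (replicate 2 alone) was taken as unchanged, and 67.2% in place of 67.6% (p limit) as moved. All 6 members kept a shared region at a start except *Irx4* under a reciprocal overlap of 50%, where its peaks of 1671 and 780 bp no longer matched (5 members), and *Irx5* where both summits had to lie within 1 kb of a start (5 members), a setting added after the data were seen. Their mean fold enrichments did not depend on the start window. The share of protein-coding genes was 67.2% with the p limit, 62.6% with the q limit, 66.3% with reciprocal overlap, 66.4% and 69.3% with start windows of 500 bp and 2 kb, 63.5% with the outermost start, and 68.6% to 68.8% in single replicates. The 52 regions between *Irx1*, *Irx2* and *Irx4* fell to 24 with the q limit and 34 with reciprocal overlap, and the 20 between *Irx3*, *Irx5* and *Irx6* to 10 with the q limit. The flank density per 100 kb (main value 9.6) around *Irx1/2/4* was 8.4 with the p limit, 3.4 with the q limit, 5.8 with reciprocal overlap, 11 and 6.8 with flanks of 100 and 500 kb, 8.4 without other protein-coding starts, 6.6 with connected peaks counted once (added after the data were seen), and 9.8 to 10 in single replicates. Around *Irx3/5/6* (4.4) it was 4.2, 2.4 and 3.6 with the same first 3 settings, 4 without other starts, and 5 to 5.2 in single replicates. The density ratio of the clusters (1.55) was 1.21 with reciprocal overlap, 1.31 to 1.55 in single replicates, 1.72 with flanks and 1.3 with connected peaks counted once. Around *Irx1/2/4* the 41 regions with a mean of at least 10 fell to 25 where both summits had to lie inside the region (added after the data were seen). The stricter limits leave fewer peaks by construction. With the background near 3 reads, weak regions rest on few reads, and their absence from a list does not show closed chromatin.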
